A study of Mus musculus with 9 samples.

Results

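The genes described here encode the phase II conjugation enzymes of mouse liver, in 9 orthotopic Hepa1-6 tumors profiled by bulk RNA sequencing. They were picked out by symbol, as the genes named Gsta, Gstm, Gstp, Gstt, Gsto, Gstk or Gstz with a number (glutathione S-transferases, GST), Ugt1 to Ugt3 (UDP-glycosyltransferases, UGT) and Sult1 to Sult5 (cytosolic sulfotransferases, SULT). This rule used no expression value, but the members were chosen with earlier results of these data known. Relatives with other symbols, such as Hpgds and Sult6b1, were left out. This gave 62 genes, of 52176 named genes in all: 23 GST, 21 UGT and 18 SULT genes. Close relatives that an entry reported together in any tumor were joined in every tumor, so that the 62 genes stood in 44 loci, of 48261 loci in all (17 GST, 9 UGT and 18 SULT loci). Of these, 6 loci held several members, namely Gstm1 with Gstm2, Gstm3, Gstm4 and Gstm7 (the Gstm cluster), the 3 Gstp genes (the Gstp cluster), 9 genes of the Ugt1a locus, Ugt2a1 with Ugt2a2, Ugt2b5 with Ugt2b37 and Ugt2b38, and Ugt3a1 with Ugt3a2. Reads of such near-identical or exon-sharing genes cannot be assigned to one of them with certainty, and their values are given for the locus. Altogether 12 of the 44 loci held more than 1 gene. Most of these included a gene outside the 3 families, such as Tmem14a beside Gsta3, Ddt beside Gstt3 and Slx1b beside Sult1a1.

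Hepa1-6 is a cell line from a mouse hepatoma, and pieces of subcutaneous Hepa1-6 tumor had been placed in the left liver lobe of male, immunocompetent C57BL/6 mice of 6 to 8 weeks. All mice received 5 intraperitoneal injections 4 days apart, from day 10 to day 26, of either PBS (the control group) or an anti-PD-1 antibody, and whole tumors freed of surrounding tissue were taken on day 27. The 3 groups had 3 tumors each: PBS, anti-PD-1 antibody-nonresponsive (the 3 largest of the antibody-treated tumors) and anti-PD-1 antibody-responsive (the 3 smallest), with tumors of intermediate response excluded by the study. The response groups were therefore set by tumor size, and size and response cannot be told apart. The model rests on one cell line, and a whole tumor holds host cells beside Hepa1-6 cells.

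In phase II metabolism a polar group is attached to a drug, toxin, hormone, bile acid or pigment, which makes it easier to excrete. GST enzymes attach glutathione to electrophiles such as lipid peroxidation products, UGT enzymes attach a sugar, mostly glucuronic acid, to bilirubin, steroids and phenols, and SULT enzymes attach sulfate to phenols, steroids and bile acids. Hepatocytes are the main site of all 3 reactions, and several of these genes are known targets of the xenobiotic sensors and of the hepatocyte transcription factors.

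Promoters of members of loci that differed between groups are shown first, since the rest of the text refers back to them. Windows of 300 bases, from 250 bases before to 50 bases after an annotated start, were taken from RefSeq (GRCm38.p6) and were present for 53 of the 62 members (20 GST, 19 UGT and 14 SULT genes). Sult2a8 and, as examples of their joined loci, Gstm1 and Ugt1a1 represent the most abundant locus of each family that was higher in responsive than in nonresponsive tumors, and Gsta3 and Ugt2a3 were added after their values were seen. Each is written 5′ to 3′ on the strand of its gene, with matches to 3 short motifs in capitals: the antioxidant response element core TGACNNNGC, the xenobiotic response element core GCGTG and the HNF1 site core GTTAAT, each searched on both strands.
Gsta3 (chr1:21240335-21240634, plus strand): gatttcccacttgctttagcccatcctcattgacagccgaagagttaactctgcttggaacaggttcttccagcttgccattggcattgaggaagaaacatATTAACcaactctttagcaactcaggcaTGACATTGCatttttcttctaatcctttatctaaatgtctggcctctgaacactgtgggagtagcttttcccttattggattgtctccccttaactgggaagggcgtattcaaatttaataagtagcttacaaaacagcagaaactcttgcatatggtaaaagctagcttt
Gstm1 (chr3:108017769-108018068, minus strand): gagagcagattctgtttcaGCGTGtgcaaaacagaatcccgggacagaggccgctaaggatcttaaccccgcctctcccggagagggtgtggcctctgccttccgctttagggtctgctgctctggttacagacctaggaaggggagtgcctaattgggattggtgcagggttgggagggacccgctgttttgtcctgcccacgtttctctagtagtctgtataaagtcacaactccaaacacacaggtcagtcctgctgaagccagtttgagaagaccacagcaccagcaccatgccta
Ugt1a1 (chr1:88211709-88212008, plus strand): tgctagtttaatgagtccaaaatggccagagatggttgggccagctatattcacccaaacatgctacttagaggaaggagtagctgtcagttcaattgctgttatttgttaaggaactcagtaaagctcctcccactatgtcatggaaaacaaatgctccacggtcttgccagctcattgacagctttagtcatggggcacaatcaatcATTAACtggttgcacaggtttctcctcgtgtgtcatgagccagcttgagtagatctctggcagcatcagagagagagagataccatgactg
Ugt2a3 (chr5:87337146-87337445, minus strand): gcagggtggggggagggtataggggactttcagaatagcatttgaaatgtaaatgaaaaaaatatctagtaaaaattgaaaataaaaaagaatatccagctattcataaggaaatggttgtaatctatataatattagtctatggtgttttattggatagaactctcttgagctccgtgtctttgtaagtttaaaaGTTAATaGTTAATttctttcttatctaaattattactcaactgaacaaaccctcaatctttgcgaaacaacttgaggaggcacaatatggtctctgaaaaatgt
Sult2a8 (chr7:14438502-14438801, minus strand): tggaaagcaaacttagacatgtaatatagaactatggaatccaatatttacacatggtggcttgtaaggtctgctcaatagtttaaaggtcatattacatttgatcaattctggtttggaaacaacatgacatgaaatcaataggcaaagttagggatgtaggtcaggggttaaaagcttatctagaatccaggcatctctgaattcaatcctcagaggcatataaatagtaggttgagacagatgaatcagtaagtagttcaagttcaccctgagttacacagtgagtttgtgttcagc

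Gsta3 held an antioxidant response element core at -121 and an HNF1 site core, on the opposite strand, at -149 relative to its start. Ugt2a3 held a pair of HNF1 site cores 1 base apart, at -54 and -47, and Ugt1a1 held one at -41. Neither window of Sult2a8 held any of these letters, and Gstm1 held only the xenobiotic response element core, at -231. Over the 64 windows of the 53 members, the HNF1 site core was in 14 (21.9%), beside 7.1% of all 32851 RefSeq windows searched. It was in 9 of the 52 windows (17.3%) of members in loci that reached FPKM 1, a level defined below. By family it was in 6 of 19 UGT windows (31.6%), 7 of 17 SULT windows (41.2%) and 1 of 28 GST windows (3.57%, Gsta3). The SULT matches included Sult2a3 to Sult2a6 and Sult3a2, which were listed at 0 in every tumor. The antioxidant response element core was in 3 member windows (4.69%: Gsta3, Gstm5 and Gstm7), beside 12.4% of all windows, and the xenobiotic response element core was in 13 (20.3%), beside 32.4%. The nuclear receptor direct repeats DR1 and DR4 (exact copies of AGGTCA with 1 or 4 free bases between them) were in no member window, beside 0.0396% and 0.0152% of all windows. At shares this low a match in 64 windows would be rare, so the lack of any cannot show that such sites are absent. A letter match is a description of the window, and neighboring family members share ancestry and are not independent.

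Levels are given as FPKM (fragments scaled to transcript length and to the mapped fragments of the library), which allow comparison between genes of different length. Of the 44 loci, 18 were at FPKM 1 or more in all 9 tumors and 29 in at least 1 tumor (15 GST, 8 UGT and 6 SULT loci). GST transcripts were the most abundant, led by the Gstp cluster with a mean of 401 over the 9 tumors, the Gstm cluster with 338 and Gsta3 with 261. The Ugt1a locus led its family with a mean of 79.5, before Ugt2b5 with Ugt2b37 and Ugt2b38 (56.7) and Ugt2b36 (47.0). Among the SULT members only Sult2a8 (32.4) and Sult1a1 (19.3) had a mean above FPKM 5. The remaining 15 loci stayed below FPKM 1 in every tumor. Of those, 10 were listed at 0 in all 9 tumors, namely Sult1c1, Sult2a1 to Sult2a6, Sult3a1, Sult3a2 and the joined Ugt2a1 and Ugt2a2, and Gsta5, Gstt4, Sult1c2, Sult1e1 and Sult4a1 were detected below FPKM 1. Several Sult2a and Sult3a genes are known to be expressed mainly in female mouse liver, and Sult4a1 mainly in brain.

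**Figure D1:**
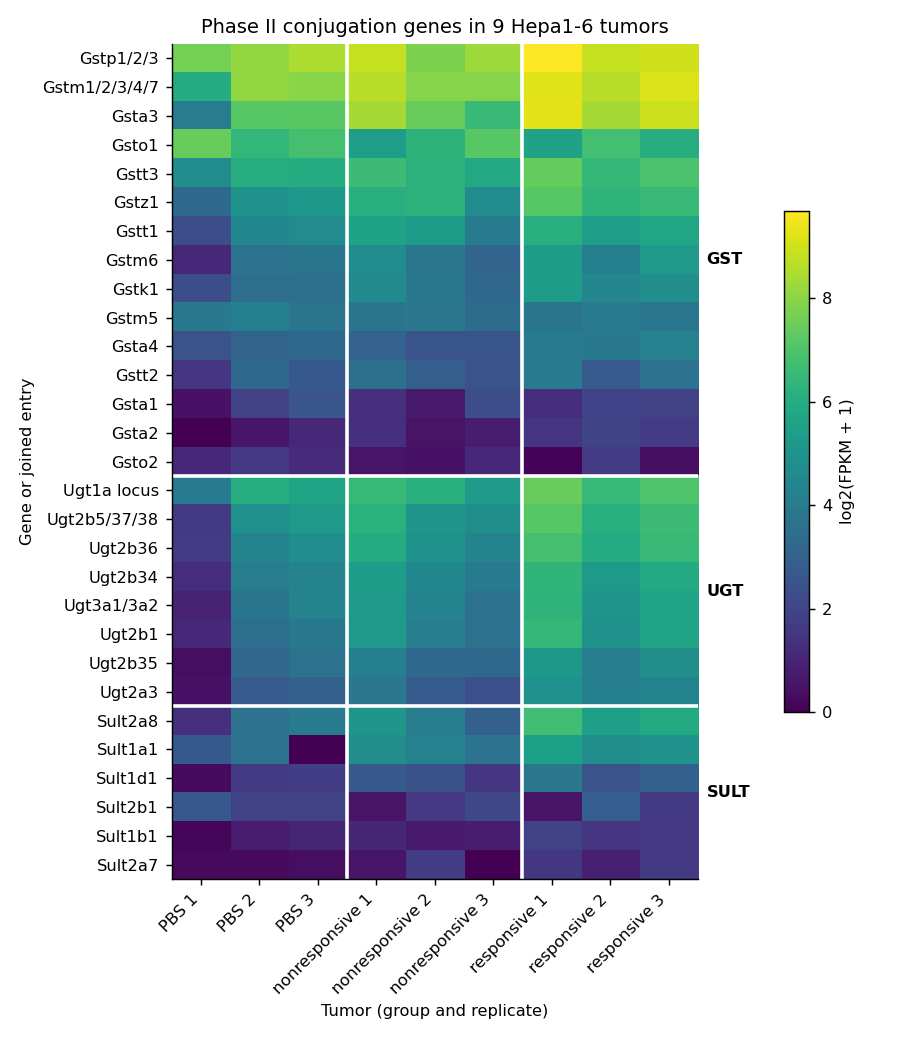
Heat map of log2(FPKM + 1) for the 29 phase II loci that reached FPKM 1 in at least 1 tumor, with tumors in columns by group and loci in rows by family and mean level. PBS tumor 1 was the lowest for most rows and responsive tumor 1 the highest, while Gsto1 was highest in PBS tumor 1.

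A pair of tumors stood at the ends of most of these distributions. Among the 28 loci at FPKM 1 or more in at least 5 tumors, PBS tumor 1 was the lowest in 23 and responsive tumor 1 the highest in 21. The hepatocyte marker list (26 genes in 23 loci, among them albumin, transthyretin and apolipoproteins, none at 0) was ordered in the same way: its summed FPKM was 921 in PBS tumor 1, 6178 and 9800 in the other PBS tumors, 6648 to 22752 across nonresponsive tumors and 18747 to 41215 across responsive ones. The hepatoma and fetal liver markers, which include Afp, H19 and Birc5, had sums of 322 to 392 (PBS), 219 to 526 (nonresponsive) and 217 to 382 (responsive). T cell markers had sums of 60.1 to 171, 102 to 124 and 131 to 184 in the same order of groups. Pancreatic acinar markers summed to 1570 in nonresponsive tumor 2 and to at most 63.3 elsewhere. In bulk tissue, fewer cells of a type and less RNA per cell cannot be told apart, and the part of hepatocyte content in the differences below was not tested.

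Responsive tumors were compared with nonresponsive tumors to ask how conjugation genes differed between antibody-treated tumors of unlike outcome. Of the 28 phase II loci at FPKM 1 or more in at least 3 of these 6 tumors, 14 were higher in responsive tumors at an unadjusted p-value under 0.05 (limma on log2(FPKM + 1)), and 0 were lower. They were all 8 UGT loci tested, 4 of 14 GST loci (Gsta4, Gsta2, Gsta3 and the Gstm cluster) and 2 of 6 SULT genes (Sult1b1 and Sult2a8). Over all 12716 loci tested, 4.36% were higher and 1.56% lower at this threshold. Sult1b1 and Gsta2 reached FPKM 1 in all responsive but only 1 nonresponsive tumor, and so could pass the filter only with the group where they were high. Without these and Sult2a7, likewise at FPKM 1 in only 1 nonresponsive tumor, 12 of 25 loci were called. None of the members passed adjustment over all loci (smallest limma adjusted p = 0.556, Gsta4), as was the case for nearly every locus, since 0.0629% of all loci passed. The median log2 fold change of the members was 0.92, beside -0.07 for all loci, and 27 of 28 values were positive. In 10 of the 28 loci every responsive tumor was above every nonresponsive tumor, beside 5.69% of all loci. Hepatocyte markers moved with this result, with 10 of 23 loci higher and a median of 1.41.

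These counts depended on single tumors. Without nonresponsive tumor 2, 5 members were higher (Gsta4, Gstz1, Sult1b1, Sult2a8 and Ugt2a3), and without nonresponsive tumor 3, responsive tumor 1 or responsive tumor 3 the count was 4 each time. Without nonresponsive tumor 1 it was 19. Of the 14 members, 3 were called in all 6 fits that left out a tumor, namely Gsta4, Ugt2a3 and Sult1b1, and Sult2a8 was lost only without responsive tumor 1. The other 10 were each lost in 4 of the 6 fits. A fit of all 9 tumors together, which shares one estimate of spread with the PBS group, called 5 loci (Gsta2, Gsta4, the Gstp cluster, Sult1b1 and Sult2a8) and no UGT locus.

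Responsive tumors were then compared with PBS tumors. Of 28 loci tested, 22 were higher (10 of 15 GST, all 8 UGT and 4 of 5 SULT loci) and 0 lower at an unadjusted p-value under 0.05, beside 9.12% higher and 10% lower over all 12715 loci. In each of the 22, all responsive tumors were above all PBS tumors, as in 11.8% of all loci. None passed adjustment (smallest limma adjusted p = 0.246), beside 0.149% of all loci. The median log2 fold change was 1.82, beside -0.11 for all loci. Hepatocyte markers again moved with it, with 21 of 23 loci higher and a median of 2.91. Sult1b1 and Gsta2 reached FPKM 1 in only 1 PBS tumor and Gsto2 in only 1 responsive tumor, and without these 3, 20 of 25 loci were called. Leaving out PBS tumor 1 left 21 members called, with a median of 1.15. Without responsive tumor 1 the count was 11 and without responsive tumor 3 it was 12.

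Nonresponsive and PBS tumors were compared to ask whether the antibody changed these genes in tumors that did not respond. Of 26 loci tested, 0 were called in either direction by limma at an unadjusted p-value under 0.05, beside 1.57% higher and 1.66% lower over all 12663 loci. None passed adjustment (smallest limma adjusted p = 0.700), beside 0.0395% of all loci. Of the 26 values, 20 were positive, with a median of 0.96 beside -0.06 for all loci. Only Sult1a1 had all nonresponsive tumors above all PBS tumors, a pattern held by 3.23% of all loci. In the fit of all 6 tumors, 0 of 23 hepatocyte marker loci were called, with a median log2 fold change of 1.46. Without PBS tumor 1 the median of the members was 0.19. Without PBS tumor 2 there was 1 call (Sult1a1, higher) and without nonresponsive tumor 3 there were 2 (Gstz1, higher, and Gsto2, lower). The 2 comparisons with PBS share the PBS tumors, and those with responsive tumors share the responsive tumors, so that the 3 sets of values are not independent of each other.

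**Figure D2:**
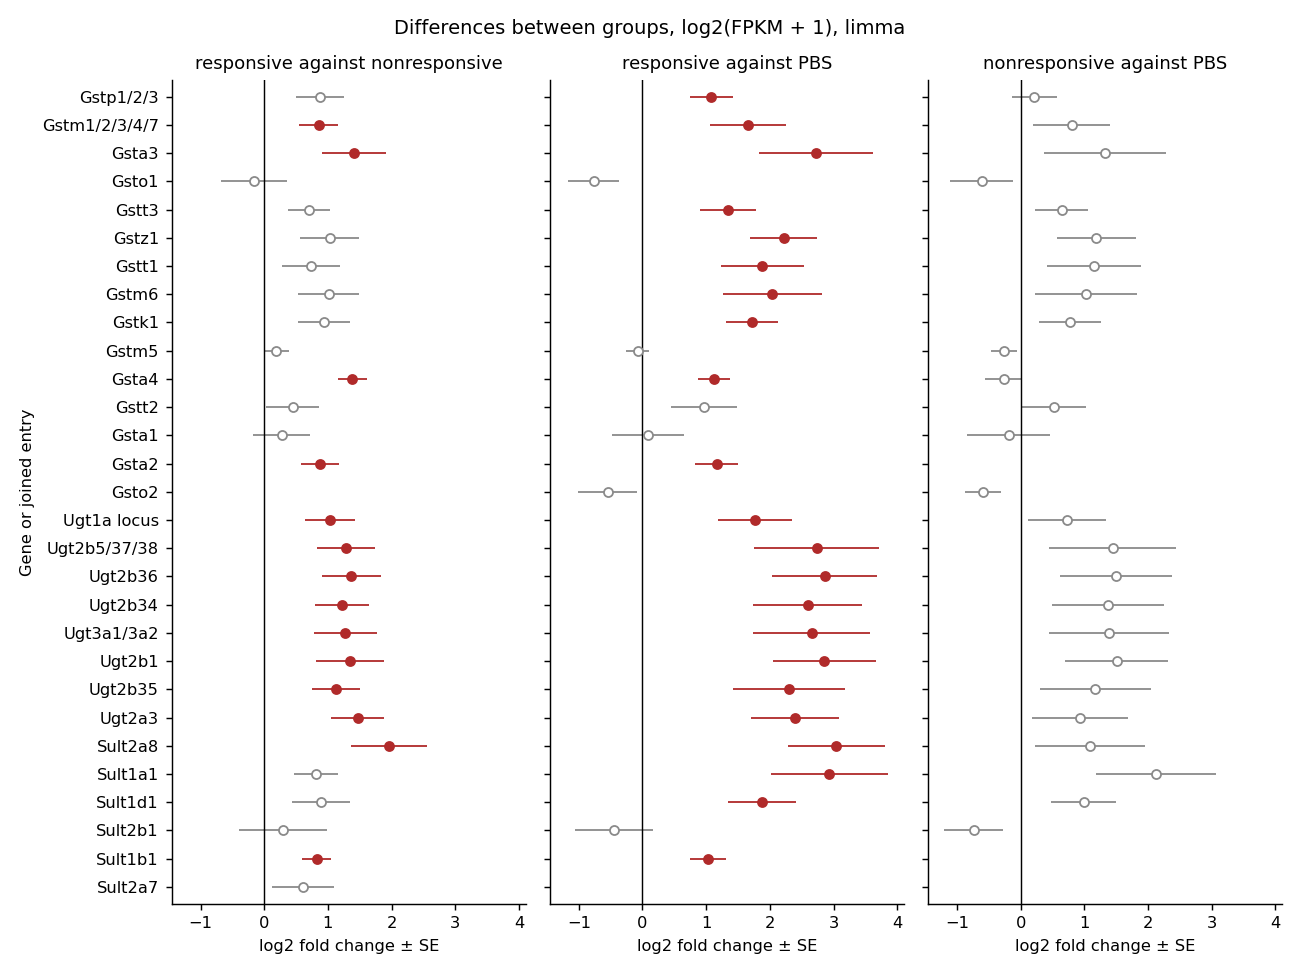
Log2 fold change with its standard error for each phase II locus tested in each of the 3 comparisons (limma on log2(FPKM + 1), 3 tumors per group), where filled red points have an unadjusted p-value under 0.05 and open gray points do not. All 8 UGT loci were filled in both comparisons of responsive tumors and none in nonresponsive against PBS, and Gsto1 was below 0 in all 3.

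Among the GST genes, Gsta4, whose enzyme conjugates the reactive aldehydes of lipid peroxidation, was at FPKM 15.6, 14.0 and 18.2 in responsive tumors, 7.16, 4.65 and 4.79 in nonresponsive tumors and 4.60, 7.37 and 8.93 in PBS tumors. The responsive tumors lay above both other groups, which overlapped each other. The log2 fold change was 1.39 (SE 0.226, limma adjusted p = 0.556) against nonresponsive tumors and 1.12 (SE 0.254, adjusted p = 0.246) against PBS tumors. The mean was 15.9 ± 2.15 (SD, n = 3) in responsive, 5.53 ± 1.41 in nonresponsive and 6.97 ± 2.19 in PBS tumors, and the fold change of nonresponsive against PBS was -0.27 (SE 0.288).

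Gsta3, the abundant alpha class enzyme of mouse liver that detoxifies epoxides such as that of aflatoxin, spanned a wider range. It was joined with Tmem14a as a locus, and had an entry of its own in only 5 tumors. The locus was at FPKM 622, 332 and 493 in responsive tumors, 332, 173 and 94.6 in nonresponsive tumors and 15.7, 142 and 148 in PBS tumors. In PBS tumor 1 the entry of Gsta3 alone was at 10.7. The lowest responsive and the highest nonresponsive tumor were nearly level, at 332.5 and 331.6, and PBS tumor 1 stood far below all others. The log2 fold change was 1.40 (SE 0.502) against nonresponsive and 2.72 (SE 0.893) against PBS tumors (limma adjusted p = 0.835 and 0.246), the latter 1.68 without PBS tumor 1. Gsta2 was much lower, at 1.85, 3.00 and 2.26 in responsive and 1.55, 0.42 and 0.68 in nonresponsive tumors, with a listed value of 0 for PBS tumor 1. The deposited confidence intervals of its responsive values were wide, at 0 to 4.49, 0.23 to 5.77 and 0 to 4.89. Gsta1, which was joined with a predicted gene, ranged from 0.37 to 4.89 as a locus, with PBS tumors at both ends. The fold changes of this locus lay between -0.19 and 0.27. In the 8 tumors where Gsta1 had an entry of its own, that entry was lower, at 0.12 to 2.67.

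The mu class divided into loci with unlike patterns. The Gstm cluster was at FPKM 588, 403 and 582 in responsive, 401, 241 and 240 in nonresponsive and 63.1, 275 and 252 in PBS tumors. The responsive tumors were above all others, although the gap to nonresponsive tumor 1 was narrow. Its log2 fold change was 0.85 (SE 0.311) against nonresponsive and 1.65 (SE 0.598) against PBS tumors (limma adjusted p = 0.835 and 0.249), the latter 0.97 without PBS tumor 1. Gstm5 was flat: it lay between 9.73 and 17.3 in all 9 tumors, a 1.78-fold range that was the narrowest of the 29 loci, with log2 fold changes of 0.19, -0.08 and -0.26 in the 3 comparisons. Gstm6, which was joined with a predicted gene, resembled the cluster rather than Gstm5, with means of 30.6 ± 11.6 in responsive, 15.3 ± 8.73 in nonresponsive and 8.58 ± 6.40 in PBS tumors. Its log2 fold change against PBS tumors was 2.04, and 1.17 without PBS tumor 1.

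The Gstp cluster, the most abundant locus of all, encodes the pi class enzymes. It was at FPKM 824, 454 and 510 in responsive, 458, 218 and 310 in nonresponsive and 204, 275 and 357 in PBS tumors. Responsive tumors were above all PBS tumors but overlapped the nonresponsive tumors, and the log2 fold changes were 1.08 (SE 0.332) and 0.87 (SE 0.379) respectively (limma adjusted p = 0.246 and 0.839). The call against PBS was lost without PBS tumor 1. Gstz1, which acts as maleylacetoacetate isomerase in tyrosine breakdown, had means of 105 ± 32.4 in responsive, 54.8 ± 25.9 in nonresponsive and 24.5 ± 13.6 in PBS tumors. Gstk1, a GST of mitochondria and peroxisomes, had means of 28.9 ± 9.29, 15.2 ± 7.67 and 8.46 ± 3.90. Both were higher in responsive than in PBS tumors, with log2 fold changes of 2.22 (SE 0.531) and 1.72 (SE 0.415), and both calls held whichever tumor was left out. Of the theta class, which acts on small halogenated compounds, Gstt1 was higher in responsive than in PBS tumors (1.88) and Gstt2 was not called (0.97). The entry that joins Gstt3 with Ddt was higher too (1.34). Gstt3 had no entry of its own in any tumor, so that this value cannot be assigned to Gstt3 rather than Ddt. The value of Gstt1 was 1.13 without PBS tumor 1. The calls of Gstt1 and of the joined entry were each lost without responsive tumor 1 and without responsive tumor 3.

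Gsto1 ran the other way. It encodes an omega class enzyme that acts mainly as a glutathione-dependent reductase. It was at FPKM 172, 84.3 and 114 in PBS tumors, 42.1, 76.3 and 142 in nonresponsive tumors and 46.5, 110.5 and 64.0 in responsive tumors, so that the highest value of the 9 was in PBS tumor 1 and the lowest in nonresponsive tumor 1. The groups overlapped in every comparison, and the log2 fold changes were -0.15 (SE 0.517) for responsive against nonresponsive, -0.77 (SE 0.404) for responsive against PBS and -0.61 (SE 0.493) for nonresponsive against PBS, none of them called. Without responsive tumor 2, Gsto1 and its neighbor Gsto2 were lower in responsive than in PBS tumors at an unadjusted p-value under 0.05, and these were the only members lower in any fit of that comparison. Gsto2 ranged from 0.07 to 2.27.

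**Figure D3:**
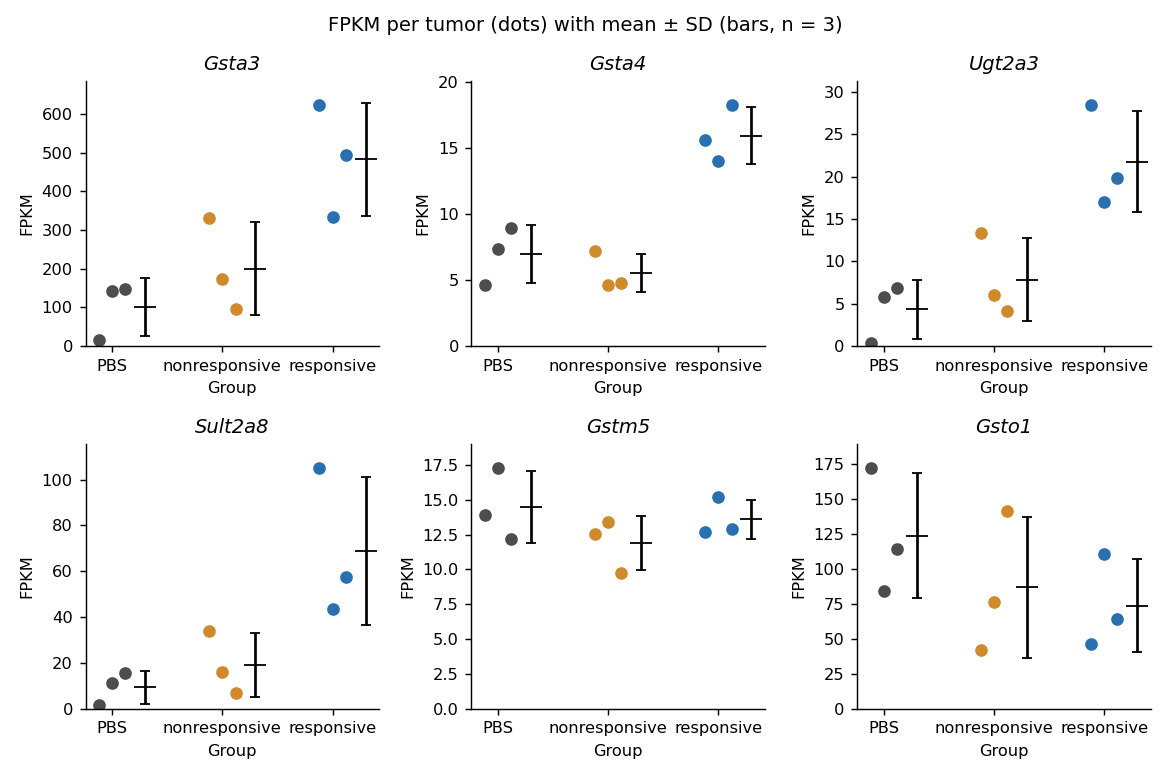
FPKM of 6 loci in each of the 9 tumors (dots) with the mean and SD of each group (black bars, n = 3), on axes that start at 0. The locus of Gsta3 was joined with Tmem14a. Gsta4 separated the responsive tumors from both other groups, Gstm5 stayed between 9.73 and 17.3, and Gsto1 overlapped across groups with its highest value, 172, in PBS tumor 1.

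The 8 UGT loci had log2 fold changes of 1.03 to 1.47 against nonresponsive tumors, beside -0.15 to 1.40 for the 14 GST loci tested. The Ugt1a locus makes all its enzymes, including the bilirubin-conjugating Ugt1a1, from alternative first exons joined to shared exons, and its entry was at FPKM 172, 89.2 and 130 in responsive, 88.4, 69.2 and 37.2 in nonresponsive and 14.7, 65.1 and 49.5 in PBS tumors. The responsive tumors were above all others, with the lowest at 89.2 beside a nonresponsive tumor at 88.4. In responsive tumor 3 the deposited confidence interval of the Ugt1a entry was wide, at 33.3 to 227. The log2 fold change was 1.03 (SE 0.399) against nonresponsive and 1.76 (SE 0.580) against PBS tumors (limma adjusted p = 0.835 and 0.246). The former was 0.68 without nonresponsive tumor 3 and the latter 1.14 without PBS tumor 1.

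The Ugt2b genes lie side by side and encode enzymes that conjugate steroids and many drugs. Ugt2b36 was at FPKM 113, 61.5 and 91.5 in responsive, 61.2, 29.6 and 19.2 in nonresponsive and 2.18, 19.1 and 25.8 in PBS tumors. Ugt2b5 with Ugt2b37 and Ugt2b38 was at 145, 68.0 and 98.5 in responsive, 72.8, 32.3 and 27.04 in nonresponsive and 2.11, 28.1 and 36.6 in PBS tumors. Nonresponsive tumor 1 came close to responsive tumor 2 for Ugt2b36 and exceeded it for the joined locus, so that only the former kept the groups apart. Where Ugt2b37 and Ugt2b38 had entries of their own, Ugt2b37 was at most 0.61 and Ugt2b38 at most 2.27, beside 2.02 to 33.5 for Ugt2b5. The joined value was therefore mostly Ugt2b5 in those tumors. Ugt2b1, Ugt2b34 and Ugt2b35 showed the same order of group means, with 55.7 ± 29.6, 59.0 ± 20.5 and 25.9 ± 9.06 in responsive tumors and 21.6 ± 13.1, 25.5 ± 12.6 and 11.4 ± 5.01 in nonresponsive tumors. The deposited confidence interval of Ugt2b35 was wide in nonresponsive tumor 1 (0 to 43.4) and in responsive tumor 1 (7.59 to 60.3). The log2 fold changes of the 5 Ugt2b loci against nonresponsive tumors lay between 1.13 and 1.37. Against PBS tumors they lay between 2.30 and 2.86, and between 1.29 and 1.99 without PBS tumor 1. The calls of Ugt2b34, Ugt2b35 and the joined locus against PBS tumors were lost without responsive tumor 1 and without responsive tumor 3, those of the last pair also without responsive tumor 2, and those of Ugt2b1 and Ugt2b36 held in all 6 fits.

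Ugt2a3, whose promoter carries the pair of HNF1 site cores shown above, had the lowest mean (11.3) of the 8 UGT loci above FPKM 1. A link between such matches and the values was not tested. Its responsive tumors stood apart from nonresponsive tumors, as did those of Ugt2b36 and the Ugt1a locus. Ugt2a3 was at FPKM 28.4, 17.0 and 19.8 in responsive, 13.4, 6.04 and 4.15 in nonresponsive and 0.41, 5.81 and 6.91 in PBS tumors. Responsive tumors were above both other groups, and the log2 fold change of 1.47 (SE 0.419, limma adjusted p = 0.835) against nonresponsive tumors was the largest among UGT loci. Ugt3a1 with Ugt3a2, whose enzymes use sugars other than glucuronic acid, was at 78.8, 31.6 and 49.1 in responsive and 36.3, 18.9 and 11.5 in nonresponsive tumors, which overlapped. Its fold change was 1.27 (SE 0.497), and against PBS tumors it was 2.66 (SE 0.922), or 1.61 without PBS tumor 1.

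Among SULT genes, Sult2a8, a liver sulfotransferase that acts on bile acids, had the largest fold change of any member. It was at FPKM 105, 43.7 and 57.4 in responsive, 34.1, 16.2 and 6.79 in nonresponsive and 1.46, 11.1 and 15.4 in PBS tumors, with all responsive tumors above all others. The log2 fold change was 1.96 (SE 0.602) against nonresponsive and 3.05 (SE 0.768) against PBS tumors (limma adjusted p = 0.835 and 0.246). Sult1b1, which acts on thyroid hormones and phenols, was at 2.68, 1.81 and 2.09 in responsive, 1.07, 0.62 and 0.72 in nonresponsive and 0.11, 0.70 and 1.02 in PBS tumors. Its responsive tumors were above all others too, while nonresponsive and PBS tumors overlapped, at a level where the pseudocount of 1 shrinks the fold change, which was 0.82 (SE 0.230) and 1.03 (SE 0.283). Sult1d1, which acts on catecholamines, was higher in responsive than in PBS tumors (1.88, SE 0.534), with means of 8.33 ± 4.62 and 1.58 ± 1.20.

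Sult1a1, the main phenol sulfotransferase of liver, was at FPKM 42.7, 26.5 and 30.4 in responsive, 26.8, 18.4 and 11.9 in nonresponsive and 5.70, 11.5 and 0 in PBS tumors. The value of PBS tumor 3 came from an entry that merged Sult1a1 with Slx1b and was listed at 0, whereas Sult1a1 had an entry of its own in the other 8 tumors, so that this 0 may be a failed estimate. The log2 fold changes against PBS tumors, 2.94 (SE 0.921) for responsive and 2.12 (SE 0.939) for nonresponsive tumors, rest in part on it, and the former was 1.87 without PBS tumor 3. Sult2b1, which sulfates cholesterol, did not follow the others: it was at 5.28, 2.67 and 2.76 in PBS, 0.43, 2.04 and 3.32 in nonresponsive tumors, and at 0.44, 6.50 and 2.17 in responsive ones, with overlapping groups and fold changes between -0.74 and 0.29. Sult2a7 reached FPKM 1 in 3 tumors only, with a maximum of 2.23.

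The families were then set beside the hepatocyte markers within each tumor, as mean log2(FPKM + 1) over the loci at FPKM 1 or more in at least 5 tumors. The hepatocyte marker mean ran from 3.78 in PBS tumor 1 to 9.14 in responsive tumor 1. The UGT mean (8 loci) ran from 1.43 to 6.33 and stayed at a nearly fixed distance from it, between -2.82 and -2.35 in all 9 tumors. By group this distance was -2.69 ± 0.153 in responsive, -2.58 ± 0.175 in nonresponsive and -2.41 ± 0.0941 in PBS tumors (SD, n = 3), with ranges that overlapped between each pair of groups. Between responsive and PBS tumors the overlap was slight, with the highest responsive value at -2.519 and the lowest PBS value at -2.521. The GST mean (15 loci) moved less than the markers: it ran from 3.23 to 5.31, and its distance from the markers widened from -0.55 in PBS tumor 1 to -3.83 in responsive tumor 1. The SULT mean (5 loci) ran from 1.42 to 3.69, with a distance between -5.45 and -2.35. The pseudocount of 1 compresses differences among low values, which touches the SULT mean and PBS tumor 1 most.

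**Figure D4:**
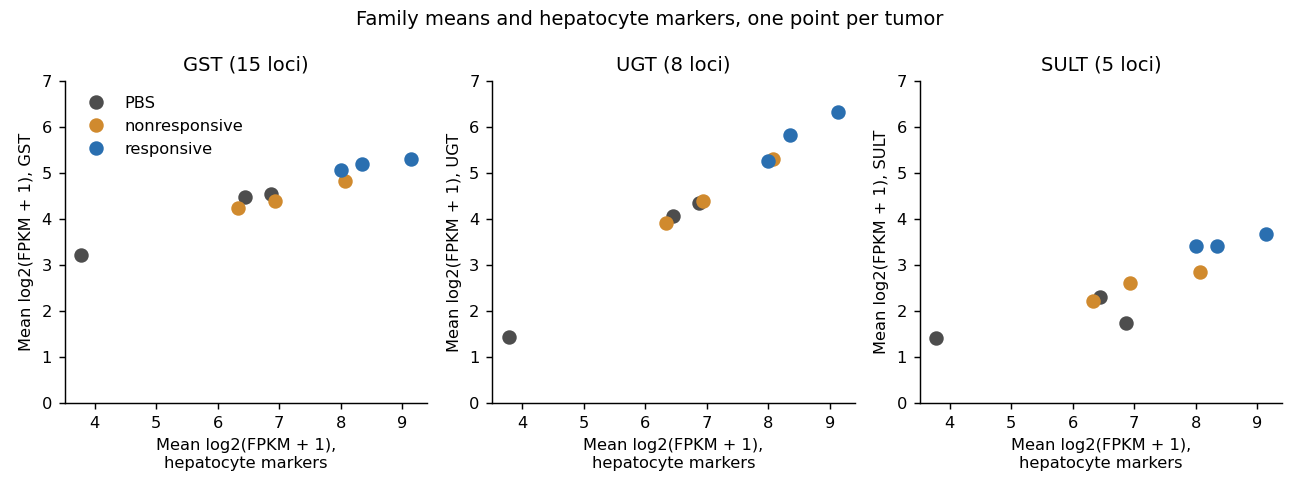
Mean log2(FPKM + 1) of the GST, UGT and SULT loci (vertical axis, 1 panel per family) against that of 23 hepatocyte marker loci (horizontal axis), with 1 point per tumor colored by group. The UGT points follow the markers from 1.43 in PBS tumor 1 to 6.33 in responsive tumor 1, while the GST points run only from 3.23 to 5.31.

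The summed FPKM gave the same order in plain units. GST transcripts summed to 2582, 1588 and 2029 in responsive, 1528, 948 and 924 in nonresponsive and 521, 953 and 1051 in PBS tumors. UGT transcripts summed to 739, 351 and 526 in responsive, 365, 203 and 134 in nonresponsive and 23.2, 166 and 182 in PBS tumors. SULT transcripts summed to 167, 84.3 and 102 in responsive, 69.3, 44.8 and 25.0 in nonresponsive and 13.2, 29.2 and 22.7 in PBS tumors. Responsive tumors were above all PBS tumors in each family, and for UGT the responsive tumor with the lowest sum, 351, was below nonresponsive tumor 1 at 365. The Ugt1a locus gave the largest share of UGT transcripts in every tumor, from 23.3% in responsive tumor 1 to 63.5% in PBS tumor 1. In SULT, Sult2a8 gave 51.9% to 62.8% of the sum in the responsive tumors.

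Genes related to conjugation or to its regulation were read from 6 lists. Their counts stand beside the 4.36% of all loci higher against nonresponsive tumors and the 9.12% higher against PBS tumors. Of the calls against PBS tumors, 1 in each of 4 lists (Slc26a1, Acsm3, Slc10a1 and Nr1h3) rests on values listed at 0 in PBS tumors, which may be failed estimates. Of the cofactor list, which makes UDP-glucuronic acid, the sulfate donor and glutathione, 4 of 16 loci were higher when responsive tumors were set against nonresponsive ones, and 8 were higher and 1 lower against PBS tumors. Ugdh, the enzyme that makes UDP-glucuronic acid and the most abundant of the list (joined with Smim14), was at 127 ± 38.9 in responsive, 119 ± 21.4 in nonresponsive and 147 ± 26.9 in PBS tumors, with a log2 fold change of 0.05 (SE 0.290) against nonresponsive tumors. Ahcy, which releases homocysteine, a precursor of cysteine, was at 168 ± 41.6, 88.4 ± 8.47 and 90.8 ± 13.4 and was higher in responsive than in nonresponsive tumors (0.90, SE 0.237, limma adjusted p = 0.835).

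Of the targets of the oxidative stress factor NRF2, which also controls several GST genes, 0 of 14 loci were higher and 1 lower in responsive than in nonresponsive tumors, with a median log2 fold change of -0.19, and 2 (14.3%) were higher against PBS tumors, a share near that of all loci. The ferritin chains Fth1 and Ftl1, the most abundant of these, had fold changes of -0.21 (SE 0.720) and 0.30 (SE 0.485) against nonresponsive tumors. Of the xenobiotic sensors and liver regulators, 2 of 15 were higher against nonresponsive and 9 against PBS tumors. Nfe2l2, which encodes NRF2, was at 67.8 ± 9.74 in responsive, 78.7 ± 10.8 in nonresponsive and 73.9 ± 7.48 in PBS tumors. Nr1i3, which encodes the sensor CAR, shared an entry with the very abundant Apoa2 and could not be read. The 15 loci counted include that entry, which also holds a hepatocyte marker.

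Of the transporters that export conjugates or take up their substrates, 6 of 14 loci were higher against nonresponsive and 10 higher and 1 lower against PBS tumors. The uptake carrier Slco1b2 was at 105 ± 41.4 in responsive beside 49.0 ± 25.98 in nonresponsive tumors, with a fold change of 1.16 (SE 0.516, not called). Of the esterases, sulfatases, epoxide hydrolases and glucuronidase, 6 of 9 loci were higher against nonresponsive and 8 against PBS tumors, led by the Ces1 cluster (513 ± 170 in responsive, 174 ± 99.6 in nonresponsive tumors, 1.65, SE 0.475) and Ces3a with its neighbor (376 ± 138 and 138 ± 106, 1.63, SE 0.566). Of the other conjugation enzymes, which include the microsomal GSTs, methyltransferases and acyltransferases, 3 of 17 were higher against nonresponsive and 10 against PBS tumors. Mgst1 was at 1595 ± 761 in responsive and 733 ± 417 in nonresponsive tumors (1.15, SE 0.559, not called). No locus of these 6 lists was lower in responsive than in nonresponsive tumors apart from the 1 NRF2 target, G6pdx, at 22.3 ± 2.30 beside 35.1 ± 4.47.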

How the data were processed

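Bulk RNA from 9 tumors was measured. The authors deposited 1 table per tumor with FPKM values from Cufflinks; the submitters' processing notes name TopHat2 2.1.1, Bowtie2 2.2.4 and the build mm8. The deposited coordinates were not used, and genes are given by symbol. FPKM values hold no read counts, so depth is unknown, and entries without a gene name took 19.2% to 81.5% of the summed FPKM and were left out. A series-wide table holds the authors' own comparisons between groups and was not used. Groups came from the sample titles.

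FPKM were summed per gene and tumor. Genes sharing an entry in any tumor were joined in all tumors, except through 19 names placed on more than 1 chromosome. A failed estimate removed 7 loci. Each pair of groups was compared on log2(FPKM + 1) with limma 3.58.1 (R 4.3.3, lmFit and eBayes with trend), over loci at FPKM 1 or more in at least 3 of the 6 tumors, with Benjamini-Hochberg adjustment over all of them. The fit was tested on simulated data. A member is called at an unadjusted p-value under 0.05. Fold changes understate the change of low genes. For 209 member entries at FPKM 5 or more, the deposited confidence interval had a median half-width of 9.03% of the value (3.18% to 126%), which covers estimation within a tumor only. The p-values set a group difference against the spread between separate tumors within groups, estimated with help from all loci tested. For the response groups this is the spread among tumors selected as largest or smallest, not among treated tumors in general.

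Named members were the 3 most abundant loci of each family and every member called in any comparison, with the other members by name in groups, and for the 6 other gene lists the 2 most abundant loci, of which some are not reported here. Values of Gsto1, Gsto2, Gstm5, Gsta1, Gstt2, Sult2b1, Sult2a7 and G6pdx lie outside this rule and were chosen after they were seen. The members and lists were chosen with earlier results of these data known. The alternatives were a pseudocount of 0.1, no filter, a minimum of FPKM 5, upper-quartile scaling, 1 fit of all 9 tumors, entries naming 1 gene only, a replicate block and leaving out each tumor.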

Additional observations from a re-analysis of the deposited data

How the results depend on the processing

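No called member changed direction under any alternative. The count of members called for responsive against nonresponsive tumors (14 of 28) ranged from 4 to 19 when 1 tumor was left out, and it came to 5 with all 9 tumors in 1 fit and to 8 of 17 with only the entries that name 1 gene. Against PBS tumors (22 of 28) it ranged from 11 to 23, and it came to 12 of 17 with those entries; fewer loci could be tested there because joined entries were dropped. For nonresponsive against PBS tumors (0 of 26) it ranged from 0 to 2, with 1, Sult1a1, in the fit of all 9 tumors. The pseudocount, the filters and the scaling kept each of the 3 counts within 1.5 times its value. With the replicate block the counts were 20, 13 and 1. The same-numbered tumors correlated between -0.522 and 0.678 after removal of group means. With 3 tumors per group such values cannot decide whether the numbers pair the tumors. The cause of the shifts in these counts was not tested. Depth is unknown, which limits what can be said of loci near FPKM 1.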
